A study of Rattus norvegicus with 38 samples.

Results

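Late-stage neurons of SHRSP and Wistar rats were compared by the 9 libraries that the labels place in these groups, 5 from SHRSP and 4 from Wistar animals, out of 38 libraries in the series. SHRSP is the stroke-prone spontaneously hypertensive rat, and Wistar is an outbred laboratory stock without inherited hypertension that served as the control strain. Each library held RNA from clusters of cortical neurons of a single animal at 32 to 34 weeks of age, collected from the frontal brain with a laser microscope. The SHRSP animals carried the numbers 378, 379, 381, 382 and 384, and the Wistar animals 350, 351, 353 and 354. The labels name no agent and no engineered allele in either group, and they give neither blood pressure nor signs of stroke, so strain, breeding and hypertension cannot be told apart here. Beside this comparison, the text uses the neurons of 10 animals at the early stage, 24 to 25 weeks, with 5 of each strain, and the blood vessels cut from the same 9 late animals. The title of the series asks how the brain's expression signature of hypertension depends on its stage.

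SHRSP rats were bred from spontaneously hypertensive rats by selecting for stroke, and they develop high blood pressure and later small-vessel damage in the brain. Cortical neurons depend on the small vessels beside them for oxygen and glucose. An inbred strain also differs from an outbred stock at many fixed alleles, and such differences can show in a tissue at any age.

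The libraries were made by 3' end sequencing, which reads a short stretch near the end of each transcript. Totals lay between 2560625 and 4101901 counts, and 13452 to 14305 of the 32883 Ensembl gene IDs (IDs below) had at least 1 count. In both measures the strains overlapped (exact permutation test, two-sided, p = 0.619 for totals and p = 0.651 for IDs detected). Levels are given as CPM, counts scaled to a common library total. The table carries IDs and no gene names, so genes are called by their IDs here and no function is given for any of them.

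The most abundant ID, ENSRNOG00000043866, took 20.4%, 26.7%, 22.3%, 25.0% and 21.3% of the counts in SHRSP animals 378, 379, 381, 382 and 384. It took 35.5%, 24.3%, 35.0% and 35.3% in Wistar animals 350, 351, 353 and 354. The groups overlapped through Wistar animal 351, which lay among the SHRSP values. The mean share was 23.1% ± 2.63 (SD, n = 5) in SHRSP and 32.5% ± 5.48 (SD, n = 4) in Wistar. The difference of -9.37 percentage points had p = 0.0317 in an exact permutation test, two-sided, and p = 0.127 after adjustment over the 4 library measures compared. So few libraries allow only coarse steps of p in such a test. As a level, this ID was not called (log2 fold -0.67, SE 0.20, adjusted p = 0.383, edgeR). The part of this share in the results below was examined by entering it as a covariate and by leaving this ID out. The values with the covariate stand beside the results they touch. With this ID left out of the counts, edgeR called 17 IDs, 7 higher and 10 lower in SHRSP. These were the same 17 as with it, given below.

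Few IDs passed the threshold for a difference between the strains. Of 10154 IDs tested, 17 passed an adjusted p of 0.05 (edgeR quasi-likelihood test, Benjamini-Hochberg adjustment), which is 0.167% of those tested. Of these calls 7 were higher in SHRSP (0.0689% of the IDs tested) and 10 were lower (0.0985%). At an unadjusted p under 0.05 there were 612 IDs, 268 higher and 344 lower, or 6.03% of those tested. The median log2 fold over all tested IDs was -0.01, and 200 IDs (1.97%) differed at least 2-fold in their fitted value. Because the samples are bulk tissue, fewer cells of a type and less RNA per cell cannot be told apart for any of these IDs.

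The 17 calls had large fitted folds, in part because the threshold on p selects for them. Their folds ranged from 2.34 to 22.1, with a median size of 2.45 on the log2 scale, and 11 of them were at least 4-fold, 3 higher and 8 lower. Over all tested IDs, 19 reached that size. In 10 of the 17 calls, 3 higher and 7 lower, the strain with less had a mean under 5 CPM. The libraries of the strains did not overlap in any of the 17, against 271 of all IDs tested (2.67%), 109 of them higher and 162 lower in SHRSP. Both the test and the lack of overlap use the same libraries, so the latter adds no independent evidence.

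**Figure D1:**
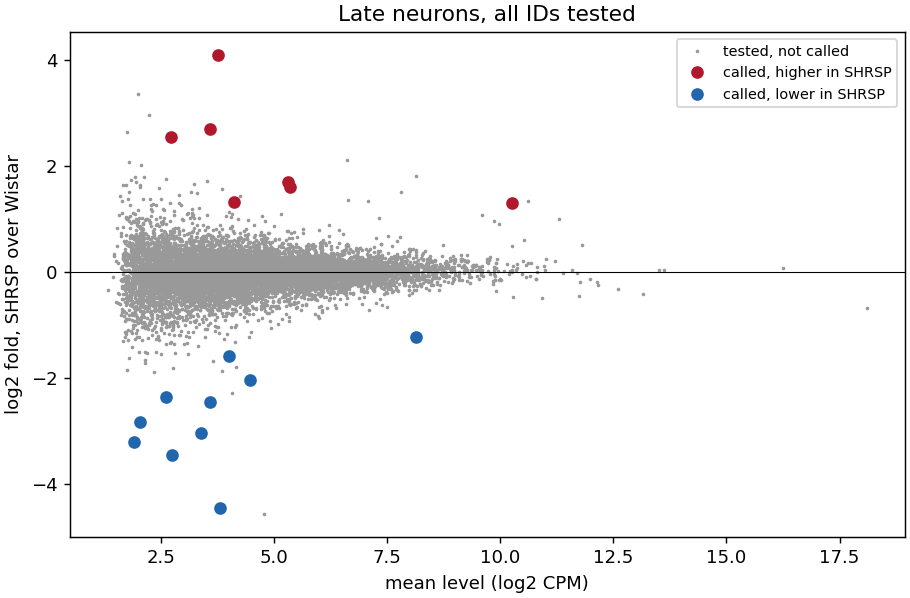
Mean log2 CPM of the 9 late neuron libraries (x axis) against the log2 fold, SHRSP minus Wistar (y axis), for the 10154 IDs tested, with each ID a point and the 17 calls coloured. The calls lie outside the dense band of IDs, 7 above it and 10 below it.

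Among the IDs higher in SHRSP, the smallest p belonged to ENSRNOG00000005826. It was read at 15.2, 20.6, 27.6, 22.3 and 24.0 CPM in SHRSP animals 378, 379, 381, 382 and 384, and at 3.44, 0, 0.763 and 1.11 CPM in Wistar animals 350, 351, 353 and 354. Every SHRSP library lay far above every Wistar library, and no SHRSP library held fewer than 51 counts, against at most 9 in Wistar. The means were 21.9 ± 4.57 CPM (SD, n = 5) and 1.33 ± 1.48 CPM (SD, n = 4). The ID was 17.1-fold higher in SHRSP (log2 fold 4.10, 95% interval 3.04 to 5.16, SE 0.50, adjusted p = 0.000755, edgeR).

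The next higher ID, ENSRNOG00000037206, stood at 12.4, 13.8, 23.6, 25.0 and 14.998 CPM in the SHRSP animals in the same order. In the Wistar animals it stood at 1.15, 2.87, 3.81 and 3.06 CPM. The groups did not overlap, and SHRSP animals 381 and 382 were the highest. Means of 17.97 ± 5.89 CPM (SD, n = 5) and 2.72 ± 1.13 CPM (SD, n = 4) gave a 6.50-fold difference (log2 fold 2.70, SE 0.37, adjusted p = 0.00149, edgeR). The call was lost with the share of the most abundant ID as a covariate (log2 fold 2.80, adjusted p = 0.156) and with all 19 neuron libraries in the fit (log2 fold 2.70, adjusted p = 0.321), while the fold stayed about as large.

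Among the IDs lower in SHRSP, ENSRNOG00000001199 had the smallest p of the whole comparison. Its levels in SHRSP were 3.04, 0.81, 2.46, 2.68 and 2.33 CPM, whereas the Wistar animals had 14.9, 19.5, 15.6 and 27.3 CPM. All 5 SHRSP libraries lay far below the lowest Wistar library. The mean was 2.26 ± 0.855 CPM (SD, n = 5) in SHRSP and 19.3 ± 5.67 CPM (SD, n = 4) in Wistar, a fold of 8.24 (log2 fold -3.04, SE 0.35, adjusted p = 0.000609, edgeR).

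The second lower ID, ENSRNOG00000054795, had 10.2, 9.72, 6.89, 8.34 and 9.998 CPM in the SHRSP animals. The Wistar animals had 24.1, 33.0, 43.1 and 48.4 CPM. The SHRSP libraries lay close together, and the Wistar libraries were spread over a wider range above them. Means were 9.03 ± 1.40 CPM (SD, n = 5) and 37.1 ± 10.8 CPM (SD, n = 4), and the ID was 4.12-fold lower in SHRSP (log2 fold -2.04, SE 0.25, adjusted p = 0.000755, edgeR). With the covariate the log2 fold was -1.93 and the adjusted p 0.125, so the call was lost at a fold of similar size.

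**Figure D2:**
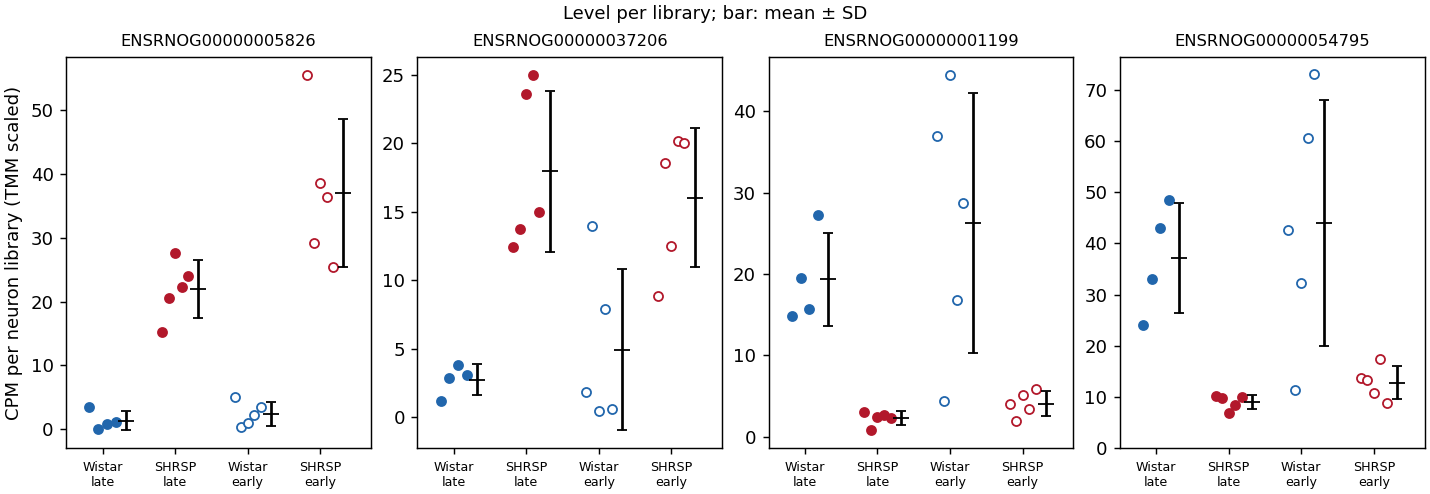
CPM (y axis) of the 2 higher and 2 lower IDs of smallest p in each neuron library by strain, with late libraries filled, early libraries open, and bars for the mean ± SD of each group. The late groups do not overlap in any of the 4 panels, while an early Wistar library reaches the early SHRSP range in the panels of ENSRNOG00000037206, ENSRNOG00000001199 and ENSRNOG00000054795.

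The other 13 calls comprised 5 higher IDs, with folds of 2.46 to 5.86 and adjusted p from 0.0191 to 0.0315, and 8 lower IDs, with folds of 2.34 to 22.1 and adjusted p from 0.000965 to 0.0384 (edgeR). Of these, 4 are named below after their values were seen. ENSRNOG00000017895 had the largest fold of the 17. SHRSP animals had 0.828, 0, 0.246, 4.47 and 0.667 CPM of it, and Wistar animals 32.1, 39.8, 25.9 and 17.8 CPM. SHRSP animal 382 was above the other 4 but below every Wistar animal. The means of 1.24 ± 1.83 CPM (SD, n = 5) and 28.9 ± 9.34 CPM (SD, n = 4) corresponded to a 22.1-fold lower level in SHRSP (log2 fold -4.47, SE 0.56, adjusted p = 0.000965, edgeR).

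ENSRNOG00000033545 had the highest level among the calls. SHRSP animals 378, 379, 381, 382 and 384 had 2294, 1223, 2068, 1389 and 1279 CPM, and Wistar animals 350, 351, 353 and 354 had 705, 920, 431 and 622 CPM. The groups were separate, with SHRSP animals 378 and 381 well above the other 3. The mean was 1651 ± 494 CPM (SD, n = 5) in SHRSP and 670 ± 202 CPM (SD, n = 4) in Wistar, a 2.46-fold difference (log2 fold 1.30, SE 0.23, adjusted p = 0.0287, edgeR). With the covariate the log2 fold was 0.64 and the adjusted p 0.724. The covariate itself differed between the strains, and its part in this difference cannot be told apart from that of strain. With all 19 neuron libraries in the fit the log2 fold was 1.30 and the adjusted p 0.900. Leaving out Wistar animal 350, 353 or 354, or SHRSP animal 378 or 381, also ended the call, with adjusted p of 0.0944, 0.0987, 0.169, 0.0956 and 0.0524.

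ENSRNOG00000038999 was at 82.0, 27.1, 61.6, 48.2 and 60.7 CPM in the SHRSP animals, and the Wistar animals had 22.1, 14.9, 11.1 and 20.6 CPM. SHRSP animal 379 came closest to the Wistar libraries without reaching them. The ID was 3.26-fold higher in SHRSP, at 55.9 ± 20.1 CPM (SD, n = 5) against 17.2 ± 5.13 CPM (SD, n = 4), with a log2 fold of 1.70, SE 0.29 and an adjusted p of 0.0191 (edgeR). Its call was lost without Wistar animal 353 or 354 or SHRSP animal 378 or 384, where the adjusted p was 0.0926, 0.0601, 0.0911 and 0.0578. It was also lost with limma voom (adjusted p = 0.0534), with all 19 neuron libraries in the fit (0.0605) and with the covariate (log2 fold 1.27, adjusted p = 0.701).

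At the threshold, the last ID called was ENSRNOG00000002911 (log2 fold -3.22, SE 0.62, adjusted p = 0.0384, edgeR). Its call was lost in 8 of the 9 fits that left out an animal, all but the one without SHRSP animal 381, and also with all 19 neuron libraries and with the covariate, with adjusted p of up to 0.498. The first not called was ENSRNOG00000033932 (log2 fold 1.51, SE 0.29, adjusted p = 0.0521). The latter read 350, 277, 414, 332 and 197 CPM in the SHRSP animals. The Wistar animals read 73.3, 192, 64.5 and 111 CPM, where animal 351 lay just under the lowest SHRSP library. It was called in 7 of the 18 alternatives: with DESeq2 (adjusted p = 0.000226), limma voom (0.0274), DESeq2-type size factors in edgeR (0.0472), the stricter filter (0.0362) and no robust shrinkage (0.0369), and without animal 351 (0.000897) or SHRSP animal 384 (0.0304). Both IDs were chosen for their place in the order after the values were seen.

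The precision of a fold depended on the level. For 7088 of the 10154 tested IDs (69.8%), the whole 95% interval of the log2 fold lay between -1 and 1, so that it held no 2-fold difference in either direction. With the tested IDs ranked by mean level and divided into 4 classes of nearly equal number, this was so for 20.2% of the lowest class, 2.51 to 9.30 CPM, where the median SE was 0.44. In the highest class, from 54.0 CPM upwards, it was so for 97.0%, with a median SE of 0.19. The classes from low to high level held 5, 7, 3 and 2 of the 17 calls.

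The material was checked without cell type markers, since these need gene names. Instead, IDs that differed at least 2-fold between vessels and neurons in the 10 early animals were followed in the late neurons, which had no part in choosing them. The 100 vessel-enriched IDs took 3.36% to 4.24% of the counts in SHRSP neurons, 2.87% to 5.43% in Wistar neurons and 7.06% to 13.0% in the late vessel libraries. The 2420 neuron-enriched IDs took 8.31% to 9.42% in SHRSP neurons, 7.38% to 7.96% in Wistar neurons and 4.69% to 6.88% in late vessels. Late neuron libraries thus stood on the neuron side of every late vessel library in both measures, although vessel-enriched IDs were present in all of them.

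The neuron-enriched share was higher in every SHRSP library than in any Wistar library. With the most abundant ID left out of the total, the ranges overlapped, at 11.1% to 12.1% in SHRSP and 10.51% to 12.2% in Wistar. The vessel-enriched share overlapped either way. Of the 79 vessel-enriched IDs tested late, 2 were called, 1 in each direction, and of the 2229 neuron-enriched IDs tested, 4 were called, 2 in each direction, beside 17 of all 10154 IDs tested (0.167%). The median log2 fold was -0.00 for the former and -0.03 for the latter, beside -0.01 over all tested IDs.

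Libraries of different strains resembled each other about as much as libraries of the same strain. Over 7238 IDs with a mean of at least 10 CPM, the correlation of log2 CPM across IDs was 0.878 to 0.968 between SHRSP animals (median 0.938, 10 pairs), 0.900 to 0.954 between Wistar animals (median 0.930, 6 pairs) and 0.872 to 0.953 between animals of different strains (median 0.933, 20 pairs). IDs are not independent replicates, and these values are given as a description.

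The early animals gave a reading of the same IDs in animals that had no part in the late calls. Early neuron libraries differed in composition from the late ones: the most abundant ID took 4.34% to 24.6% of their counts (median 6.76%), under 20% in 8 of 10, with 9501 to 14045 IDs detected. Stage and library composition therefore cannot be told apart. The early comparison called 5 of 9789 IDs tested (0.0511%).

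Of the 17 late calls, 16 were tested in early neurons, and all 16 had the same sign there. Of all 9465 IDs tested at both stages, 57.8% had the same sign. With an unadjusted p under 0.05 and the same sign, 12 of the 16 passed early, against 4.97% of all. Signed by the late direction, the early log2 folds of the 16 ranged from 0.30 to 5.33, with a median of 1.80. In early animals, 5 of the 16 were without overlap between the strains in the late direction, against 132 of the 9465.

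Of the late calls, 3 were also called early. The first, ENSRNOG00000017895, was at 0 to 2.20 CPM in early SHRSP and 16.5 to 73.9 CPM in early Wistar neurons (log2 fold -5.33, SE 0.54, adjusted p = 0.000506, edgeR). ENSRNOG00000005826 stood at 25.5 to 55.6 CPM in early SHRSP and 0.367 to 5.02 CPM in early Wistar (log2 fold 3.88, SE 0.50, adjusted p = 0.00577). ENSRNOG00000038999 had an early log2 fold of 1.82 (SE 0.30, adjusted p = 0.0427).

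In several late calls, early Wistar animals lay within or past the early SHRSP range. For ENSRNOG00000001199 the early Wistar values of animals 340, 343, 346, 349 and 368 were 36.9, 4.40, 44.5, 16.8 and 28.7 CPM, against 1.89 to 5.83 CPM in early SHRSP, so animal 343 lay in the SHRSP range (log2 fold -2.69, SE 0.55, unadjusted p = 0.000179, adjusted p = 0.123, edgeR). ENSRNOG00000054795 had 42.6, 11.4, 32.2, 60.6 and 73.1 CPM in the same animals, against 8.74 to 17.4 CPM in early SHRSP, and animal 343 was again within it (log2 fold -1.78, SE 0.41, adjusted p = 0.206). ENSRNOG00000037206 had an early log2 fold of 1.71 (SE 0.73, adjusted p = 0.760), with Wistar animal 343 at 13.9 CPM, inside the SHRSP range of 8.86 to 20.2 CPM, and animal 349 just under it at 7.89 CPM. Over the 16 calls, animal 343 lay inside or past the early SHRSP range in 6, animals 340 and 346 in 4 each, animal 368 in 3 and animal 349 in 1.

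Whether the strain difference itself changed from early to late was tested over all 19 neuron libraries. No ID of 10833 was called (0%, edgeR); at an unadjusted p under 0.05 there were 254 (2.34%), and DESeq2 and limma voom called 0 as well. Of the 17 late calls, 2 had an unadjusted p under 0.05 for the change, the smaller being 0.0166. For ENSRNOG00000005826 the difference was 0.20 on the log2 scale higher late than early, with a 95% interval of -1.32 to 1.72, which leaves room for changes of either sign. The lack of calls therefore does not show that the strains differed equally at both stages.

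The smallest p for a change with stage belonged to ENSRNOG00000010183, named here after its values were seen. Late, it was at 22.9, 16.6, 25.1, 13.7 and 18.3 CPM in the SHRSP animals, above all Wistar animals with their 9.54, 6.02, 3.05 and 7.24 CPM (log2 fold 1.58, SE 0.32, adjusted p = 0.0584, edgeR). Early, the strains overlapped, at 21.5 to 36.2 CPM in SHRSP and 15.4 to 60.5 CPM in Wistar (log2 fold -0.34). The change was 1.89 on the log2 scale (SE 0.50, unadjusted p = 0.000836) and did not pass adjustment (adjusted p = 1).

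The blood vessels of the same 9 late animals were read beside the neurons, so these values are from the same animals and add no new ones. Vessel libraries varied far more between animals, with a coefficient of variation of 0.913 against 0.267 in neurons and a median SE of 0.74 against 0.27. The vessel comparison called 1 of 10504 IDs tested (0.00952%), ENSRNOG00000038999. It stood at 303 to 500 CPM in SHRSP vessels (391 ± 99.5, SD, n = 5) and at 54.1 to 99.8 CPM in Wistar vessels (72.8 ± 20.2, SD, n = 4), a log2 fold of 2.42 (SE 0.30, adjusted p = 0.000216, edgeR).

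Of the 17 neuron calls, 15 were tested in vessels and all 15 had the same sign, against 51.5% of the 9465 IDs tested in late neurons and late vessels. With the same sign and an unadjusted p under 0.05, 7 of the 15 passed, against 140 of the 9465, and the median SE of the calls in vessels was 1.07. ENSRNOG00000005826 was at 18.9 to 94.0 CPM in SHRSP vessels and at 0, 0, 1.31 and 10.7 CPM in Wistar vessels (log2 fold 4.42, SE 1.07, unadjusted p = 0.000684, edgeR). ENSRNOG00000001199 was at 0 to 6.08 CPM in SHRSP vessels, with 2 of 5 libraries at 0, and at 14.0 to 24.4 CPM in Wistar vessels (log2 fold -4.08, SE 1.52, unadjusted p = 0.0128). ENSRNOG00000033545, in contrast, had a vessel log2 fold of 0.20 (SE 0.35).

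**Figure D3:**
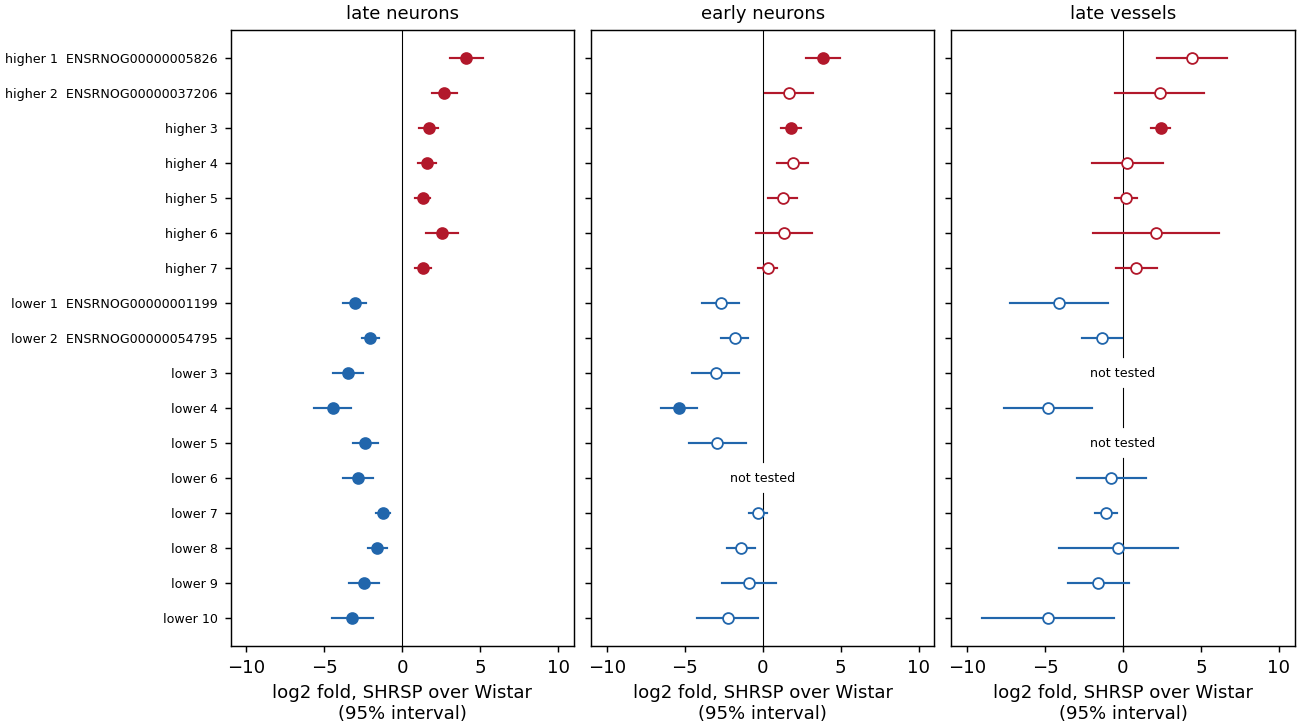
Log2 fold, SHRSP minus Wistar (x axis), of each of the 17 late neuron calls (rows) in late neurons, early neurons and late vessels, with 95% intervals as bars and filled points where the adjusted p was under 0.05. All 16 early and all 15 vessel values lie on the side of the late neuron value, and the vessel intervals are mostly the widest.

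The difference between the strain effects in neurons and in vessels was tested over the 18 libraries of the 9 animals with the animal as a block. No ID of 11473 was called (0%, edgeR), 318 had an unadjusted p under 0.05, limma voom called 0 and DESeq2 called 7. Among the neuron calls, only ENSRNOG00000033545 came under 0.05 before adjustment in this edgeR fit (unadjusted p = 0.0479). Given the spread of the vessel libraries, this test had little precision for single IDs, with a median SE of 1.05 on the log2 scale.

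A single ID had a larger fitted fold than any call and yet was not called by edgeR with robust shrinkage. ENSRNOG00000004090, chosen after its values were seen, was at 1.37 to 3.32 CPM in the 5 SHRSP animals and at 1.52, 65.0, 116 and 46.0 CPM in Wistar animals 350, 351, 353 and 354. The CPM given for this ID are scaled slightly differently from those of the fit. On the scale of the fit, the SHRSP animals had 1.38 to 3.33 CPM. The Wistar animals, in the same order, had 1.53, 65.4, 116 and 46.2 CPM there. Wistar animal 350 lay among the SHRSP values and the other 3 far above them. The log2 fold was -4.57 (SE 0.85, adjusted p = 0.106, edgeR), and without animal 350 it was -4.97 with an adjusted p of 1.05e-06. DESeq2 (adjusted p = 0.000261) and edgeR without robust shrinkage (0.0056) called it with all 9 libraries. It was not called with limma voom (log2 fold -3.61, adjusted p = 0.675). Nor did edgeR call it without the filter on low counts (adjusted p = 0.237) or with DESeq2-type size factors (0.103). The same held with the most abundant ID left out (0.119), with the covariate (0.701) and with all 19 neuron libraries (0.406).

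The same division ran through both materials and both stages. In vessels, Wistar animals 350, 351, 353 and 354 had 0, 114, 162 and 58.5 CPM. Among early Wistar animals, 340 and 346 had 113 and 127 CPM in neurons and 48.9 and 48.7 CPM in vessels, whereas the other 3 had at most 5.96 CPM in neurons and 0 in vessels. Of the 19 animals, 5, all Wistar, were above 40 CPM in both materials (46.0 to 162 CPM), 14 were low in both (at most 10.2 CPM), namely 4 Wistar and all 10 SHRSP, and 0 were high in only 1 material. The limit of 40 CPM was set after seeing these values.

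**Figure D4:**
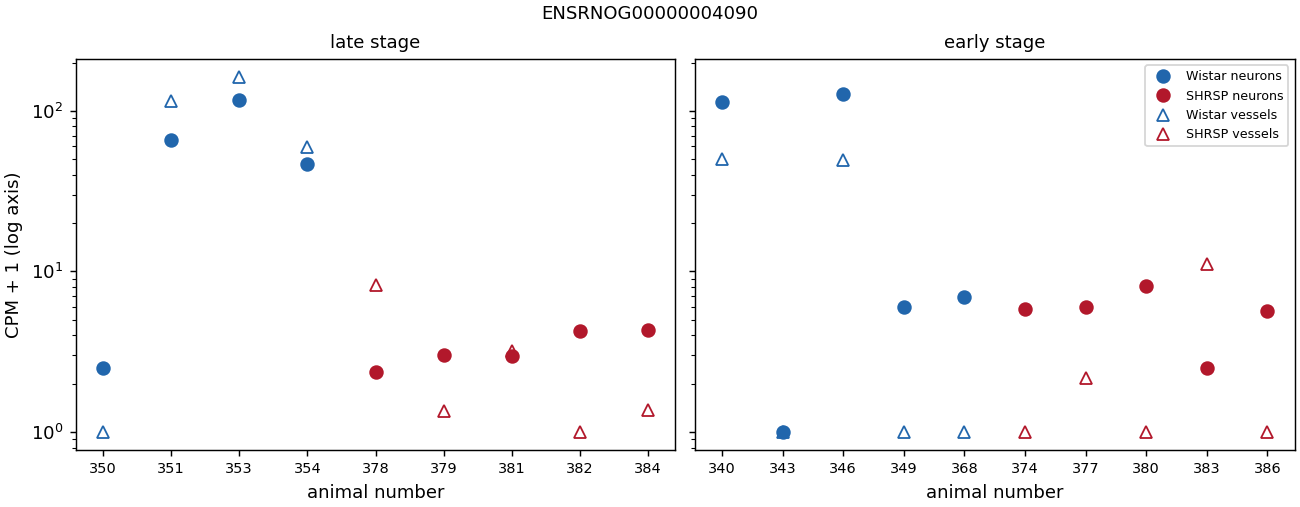
CPM + 1 of ENSRNOG00000004090 on a log axis (y axis) for each animal (x axis), with neuron libraries as filled circles and vessel libraries as open triangles. The 5 Wistar animals 340, 346, 351, 353 and 354 are high in both materials, and the 10 SHRSP and 4 other Wistar animals are low in both.

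The number of calls depended on the fit. All 17 calls kept their sign in each of the 18 alternatives, 9 that left out an animal and 9 that changed the fit. The strains' libraries did not overlap in any of the 17, so leaving out an animal kept their order. The kept signs therefore add no independent evidence. Only 3 calls passed the threshold in every alternative: ENSRNOG00000005826, ENSRNOG00000001199 and ENSRNOG00000017895. Without each animal in turn, 6 to 33 IDs were called. Without SHRSP animal 378 there were 6 calls, without Wistar animal 353 there were 8, without Wistar animal 354 there were 9 and without Wistar animal 350 there were 11. Without Wistar animal 351, the animal with the low share of the most abundant ID, there were 33, 17 higher and 16 lower, 15 of them shared with the 17.

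**Figure D5:**
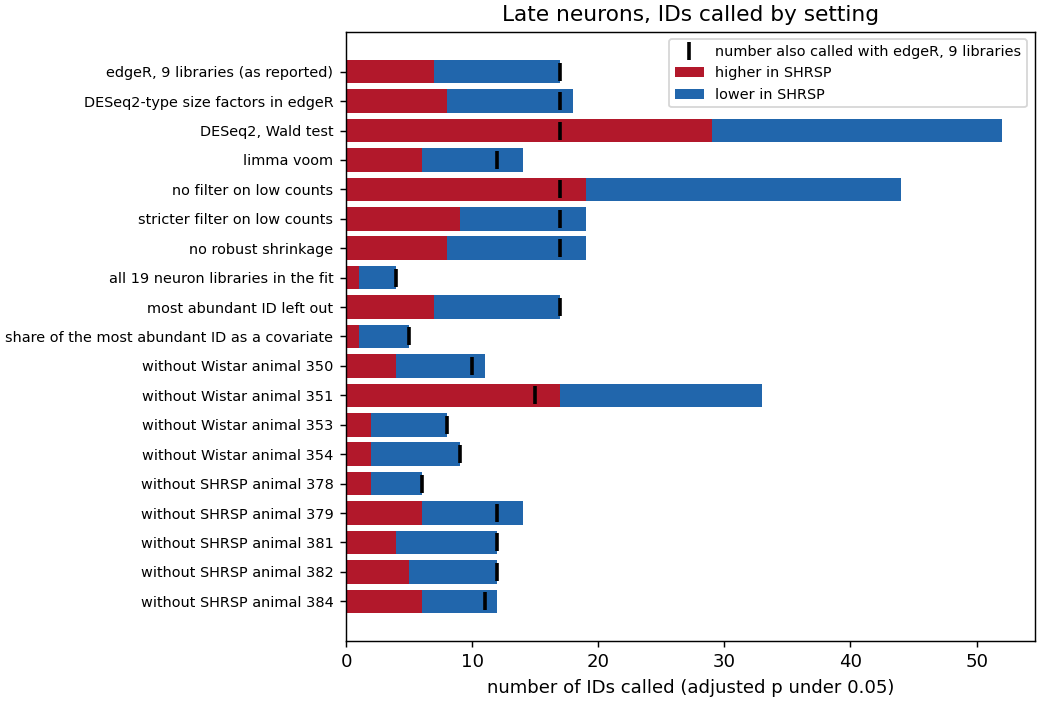
Number of IDs called in late neurons (x axis) under each fit (rows), higher and lower in SHRSP in separate colours, with ticks for the number that were also called in the fit of the 9 libraries reported here. The count is 17 as reported, 52 with DESeq2, 5 with the share of the most abundant ID as a covariate and 33 without Wistar animal 351.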

How the data were processed

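The deposited table held raw counts, whole numbers for each Ensembl gene ID, in 38 columns of which 0 lacked a sample. Per the labels' protocols, RNA extraction used the PicoPure kit and library making the forward QuantSeq 3' kit. Among the programs in the submitters' processing notes are STAR 2.5.3a and HTSeq 0.6.1, beside FastQC 0.11.5 and DESeq2 1.18.1. Not given in the sources used here are the genome build, annotation and strand setting of the counting and any use of molecular identifiers. Overlapping genes and near-identical copies therefore could not be separated.

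Groups followed the labels. The 5 SHRSP and 4 Wistar late neuron libraries were fitted alone with edgeR 4.0.16 in R 4.3.3, using its filter on low counts, TMM scaling and the robust quasi-likelihood F test, two-sided, with Benjamini-Hochberg adjustment over the 10154 IDs that passed the filter. A call is an adjusted p under 0.05. The early neurons (9789 IDs) and late vessels (10504 IDs) were fitted in the same way, each on its own scale. The SE is the log2 fold divided by the square root of F. Replicates are separately numbered animals, and p-values measure the spread between them, with cutting and library making included. The number in the titles was read as the animal and used as a block between neurons and vessels. Deviations of the 9 late pairs from their group means, over 3694 IDs, correlated between -0.229 and 0.338 (median 0.0633), with 2 over 0.1, so the block rests on the labels. All pairs of late neuron libraries differed by more than sampling noise (smallest chi-square per degree of freedom 6.33, over IDs with at least 10 counts).

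The comparison, the lists and the tests were chosen with earlier results of these data known. The table gives no gene names, and the reference table, of the rat assembly GRCr8, pairs none of its rows with an Ensembl ID, so 0 IDs matched. The 35 lists of 629 symbols, cell type markers among them, could not be applied, and no sequences are shown. By the rule for that case, the 2 higher and 2 lower IDs of smallest p are named, and others are said to be chosen after their values were seen. Alternatives used DESeq2 1.42.0 and limma 3.58.1, other filters and scalings, a covariate, the most abundant ID left out, all 19 neuron libraries, and each animal left out. Correlations between libraries used log2 CPM with a prior count of 2. Code was tested on simulated data.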

Additional observations from a re-analysis of the deposited data

Results flagged for a closer look

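Among 36 groups of library values examined for a single animal far from the rest, 3 had a gap to the nearest animal, relative to the group's range, above Dixon's 95% critical value. For independent groups of unselected values, chance would mark about 1 in 20. The groups here were library measures and levels of IDs singled out in this report, some for their values. Both flags of animal 351 concern the same ID, so that rate does not strictly apply. In late Wistar neurons, animal 351 had a share of 24.3% for the most abundant ID, against 35.0% to 35.5% in the other animals. The level of that ID, ENSRNOG00000043866, was likewise 227487 CPM in animal 351 and 389115 to 403042 CPM in the others. In late SHRSP neurons, ENSRNOG00000017895 was at 4.47 CPM in animal 382 and at 0 to 0.828 CPM in the others.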

How the results depend on the processing

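The 17 late neuron calls became 52 with DESeq2 (29 higher, 23 lower) and 44 without the filter on low counts (19 higher, 25 lower), both including all 17, but 4 with all 19 neuron libraries in the fit (1 higher, 3 lower) and 5 with the share of the most abundant ID as a covariate (1 higher, 4 lower). With the most abundant ID left out of the counts, the same 17 were called. Other scaling, filter, shrinkage and limma voom gave 14 to 19, and leaving out each animal gave 6 to 33. In early neurons the 5 calls became 46 with DESeq2 and 0 with limma voom (650 at an unadjusted p under 0.05), and 2 to 17 without each animal, with 17 without Wistar animal 343, 9 without SHRSP animal 383 and 2 without each of 340, 368, 374, 380 and 386. In late vessels the 1 call became 4 with DESeq2 and 1 to 3 without each animal (3 without Wistar animal 351). For the difference between materials, edgeR called 0 with the animal as replicate block and 0 in the unpaired fit with no replicate block, and DESeq2 called 7. The difference in the share of the most abundant ID was -12.1 to -8.38 percentage points without each animal. Among these sets that left out an animal, it passed an exact permutation p of 0.05 only without Wistar animal 351. With all 9 libraries the p was 0.0317 (exact permutation test, two-sided). Each smaller set allows fewer assignments than all 9. For the next 10 IDs the difference was -0.31 points. The cause of these changes was not tested. Depth limits what was seen at low levels, where most intervals reached past a 2-fold difference, and intervals cover these 9 animals only.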

Other observations

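Expression that was detected in every library of a strain and in none of the other was rare and of low level. Over the whole table of 32883 IDs, 9 had counts in all 4 late Wistar neuron libraries and none in the 5 SHRSP libraries, with a mean of at most 9.75 counts in Wistar. The reverse held for 4 IDs, with a mean of at most 5 counts in SHRSP. None of these 13 IDs passed the filter on low counts, so none was tested.

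Within a strain, few tested IDs varied widely between animals. Beside ENSRNOG00000004090 in Wistar, 1 ID spanned at least 16-fold (on CPM + 1, with a highest value of at least 20 CPM) among the SHRSP animals. ENSRNOG00000061102, chosen by that range after its values were seen, was at 33.4, 9.72, 55.6, 51.5 and 2.33 CPM in SHRSP animals 378, 379, 381, 382 and 384, and at 21.0, 64.8, 8.01 and 13.1 CPM in Wistar animals 350, 351, 353 and 354. In the vessels of SHRSP animals 379 and 384 it was at 47.9 and 24.9 CPM, so the low neuron values of these animals did not recur in their vessels.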
